A study of Mus musculus with 49 samples.

Results

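Blood cell RNA of mice given oleic acid (OA) was compared between 4 h and 3 h after the injection. The groups were formed from the time in the array titles. They hold 11 of the 49 arrays of the series and 8 of its 37 mice, with 5 arrays of 4 mice at 4 h (mice 2, 3, 5 and 6) and 6 arrays of 4 mice at 3 h (mice 2, 3, 4 and 7). Serum-injected mice of the same hours, 2 at 4 h (mice 1 and 4, 3 arrays) and 2 at 3 h (mice 1 and 5, 2 arrays), show whether a difference between the hours is also present without OA. All were wild-type female C57Bl/6J mice, 7 weeks old, anaesthetised with xylazine and ketamine. They received 20 µl of OA (1.2 µl per g body weight) or physiological serum into the tail vein, so the anaesthetic and the injection are common to every group. Each hour was measured in separate mice, and no uninjected mouse enters these comparisons. The series text counts 5 OA mice at 3 h, of which 4 were analysed here.

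Oleic acid is a long-chain fatty acid. Given into a vein it reaches the lung first, where it damages the endothelium and the alveolar wall, and it is used as a model of acute lung injury. Peripheral blood mononuclear cells (PBMC) are mainly lymphocytes and monocytes. In the first hours of a lung injury such cells and neutrophils can leave the blood for the lung or enter it from the marrow, so RNA of blood reflects both which cells are present and what they transcribe. In these bulk samples, fewer cells of a type and less RNA per cell cannot be told apart.

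RNA was amplified, labelled with a radioactive isotope and hybridised to nylon filters that carry spotted mouse cDNA clones. A level below is the log2 of the quantile-normalized spot signal, averaged over a mouse's arrays, and a difference of 1 on this scale is a doubling of signal. In all, 7739 clones were tested with limma, and p-values were adjusted over all of them by the Benjamini-Hochberg method with a threshold of 0.05. Levels of different clones are not comparable, since clone lengths differ. The labels give PBMC as the tissue, whereas the extraction text names lung. Cd3e of T cells and S100a9 of neutrophils and monocytes were above the empty spots on all 11 OA arrays, with mean levels at 3 h of 9.19 and 12.19. Red cell and platelet transcripts were also bright, with Hba-a1 of haemoglobin at 14.41 on each of the 12 mice of both hours, the ceiling of the scale, and Pf4 of platelets at 13.54 in the OA mice at 3 h. Cd14 of monocytes and Itgam of myeloid cells were not above the empty spots on any of these OA arrays. Of 14 lung epithelial and endothelial markers measured, 7 were not above the empty spots on any array of the 4 groups, and the others were on at least 1. The same share over all clones was not counted, so this count does not tell the tissue.

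The mice did not form compact groups. Over all 37 mice the first principal component held 36.2% of the variance, and 7 mice stood apart on it, with scores of at least 38.2 against at most 6.67 for the others. They were OA mouse 7 of 3 h, with a score of 50.5, OA mice 2 and 3 of 4 h, with 61.3 and 40.0, both serum mice of 4 h, with 70.7 and 38.2, and 2 mice of 18 h. OA mice 5 and 6 of 4 h lay between, at 6.7 and 6.0, and the other 3 OA mice and both serum mice of 3 h lay between -15.5 and -11.7. The share of clone spots above the empty spots was 41.8% on the array of OA mouse 7 of 3 h, 49.2% and 48.7% for OA mice 2 and 3 of 4 h, 42.3% and 43.8% for the serum mice of 4 h, and 57.0% on both serum arrays of 3 h. OA mice 5 and 6 of 4 h, which did not stand apart, were at 46.3% and 50.2%. OA mice 2, 3 and 4 of 3 h were at 53.55%, 57.77% and 53.92%, above every OA mouse of 4 h. The median spot signal was 117 for OA mouse 7 and up to 286 on the other OA arrays of 3 h. The part of signal strength in the position of these mice was not tested. OA mouse 3 of 3 h has a further uncertainty. Its deposited ratio was formed against serum of 1.5 h (within 0.005) and differed from one against serum of 3 h by up to 3.738, while the other 10 OA arrays matched serum of their own hour. It was kept at 3 h, as titled, and results are also given without it.

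**Figure D1:**
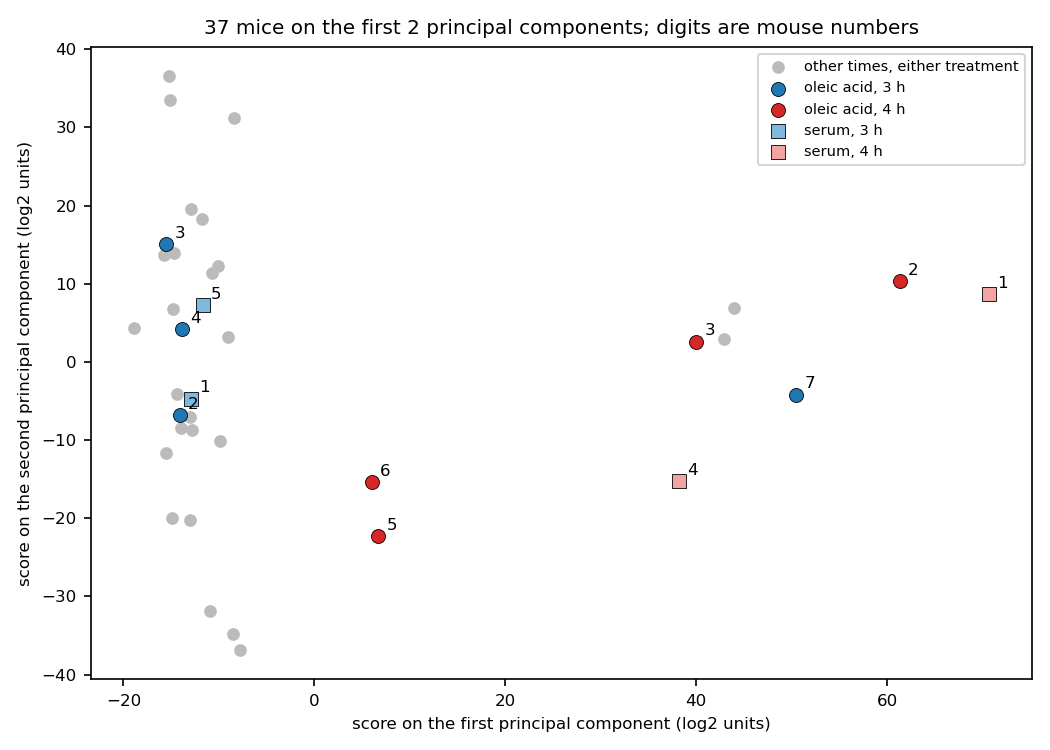
Scores of the 37 mice on the first 2 principal components of the log2 signal, in log2 units. Circles are OA mice and squares serum mice of 3 h (blue) and 4 h (red), digits are mouse numbers, and grey points are mice of other times. OA mouse 7 of 3 h, at 50.5 on the horizontal axis, lies with OA mice 2 and 3 and the serum mice of 4 h, and away from the other OA mice of 3 h.

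In the main fit, with all 8 mice and the arrays of a mouse averaged, the OA mice of 4 h and 3 h could not be told apart at the level of single clones. No clone passed (0 of 7739, 0%), and the smallest adjusted p was 0.0751. At an unadjusted p under 0.05, 573 clones were higher at 4 h (7.4% of those tested) and 578 were lower (7.47%). All 4 mice of 4 h lay above all 4 of 3 h for 233 clones (3.01%) and below them for 189 (2.44%). The median standard error of a difference was 0.2342, so a single clone needed a difference of several such units to pass over this many tests.

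The count rested on 1 mouse. Without OA mouse 7 of 3 h, 711 clones passed, of which 283 were higher and 428 lower at 4 h. Leaving out any other OA mouse in turn, mouse 3 of 3 h among them, gave 0, with 717 to 1335 clones at an unadjusted p under 0.05. Without all mice that stood apart, which leaves 2 OA mice of 4 h (5 and 6) and 3 of 3 h (2, 3 and 4), 75 clones were higher at 4 h (0.969%) and 243 lower (3.14%). These 2 mice of 4 h cannot speak for the whole group, and the fit takes their spread to be like that of the other groups. Without OA mice 3 and 7 of 3 h together, 140 clones passed. The settings without several mice were chosen after the data were seen.

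**Figure D2:**
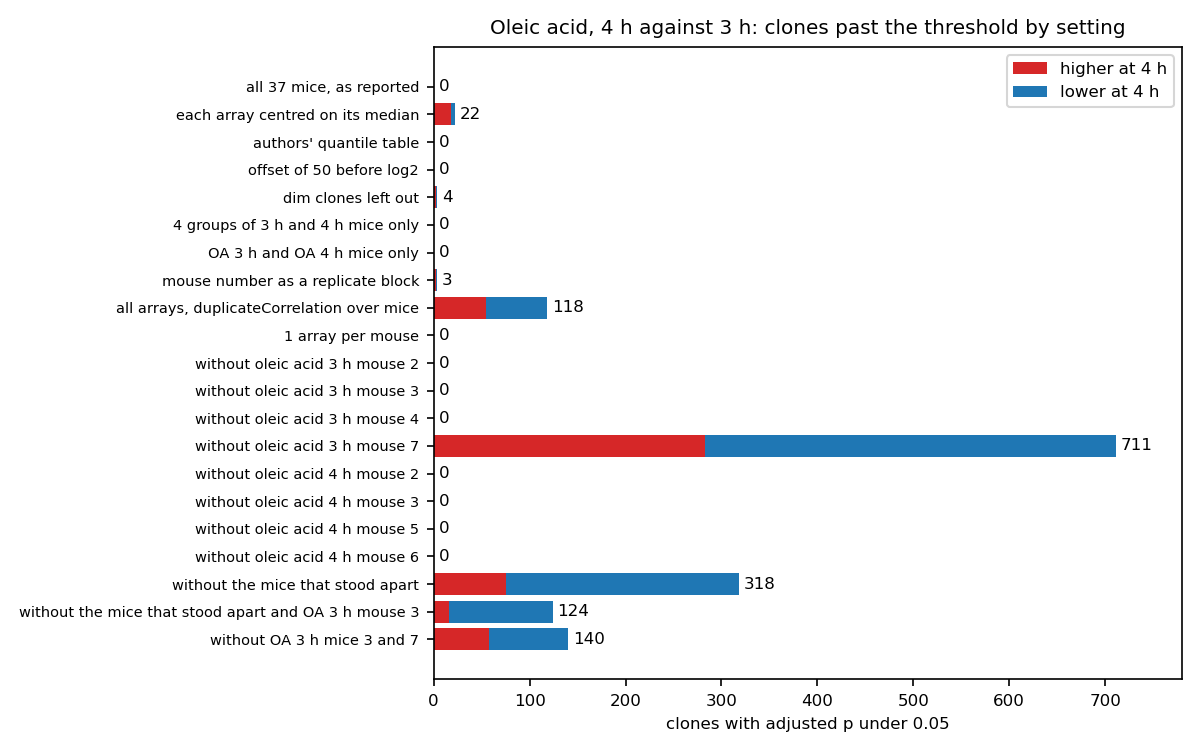
Number of clones with an adjusted p under 0.05 for OA 4 h against 3 h under each setting, with those higher at 4 h in red and those lower in blue. The bar is at 0 in the main fit and at 711 without OA mouse 7 of 3 h.

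The genes described next are the 12 higher and the 12 lower genes with the smallest unadjusted p, 1 clone per gene. None of the 24 passed in the main fit with all mice, where their adjusted p ran from 0.0751 to 0.112. With all 8 OA mice kept, 12 passed with median centring, 21 with arrays unaveraged, 4 of the 7 left without dim clones and 1 with mouse number as a block, and 0 in the other fits that kept these mice. All 24 passed without OA mouse 7 of 3 h, 22 without the mice that stood apart, and 16 when OA mouse 3 of 3 h was left out as well. The hours did not overlap for 21 of them, and in 23 of the 24 mouse 7 was the mouse of 3 h nearest to the 4 h mice. Having been chosen for this difference, they are given as a description.

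Of the 12 higher genes, Vcl, Ctnna1, Asap1 and Sgce act at the junction of membrane, adhesion site and actin. Vcl, which encodes vinculin of focal adhesions, was at 10.69, 10.99, 10.74 and 11.57 in mice 2, 3, 4 and 7 of 3 h and at 12.33, 12.41, 12.10 and 12.02 in mice 2, 3, 5 and 6 of 4 h. The hours did not overlap, and mouse 7 was the highest at 3 h (difference 1.22, SE 0.26, 2.32-fold, adjusted p = 0.0751 by limma). Ctnna1, for alpha-catenin, which links cadherins to actin, was at 7.66, 7.6, 7.68 and 8.92 at 3 h and at 9.15, 9.47, 8.91 and 9.23 at 4 h. Mouse 7 lay among the 4 h mice here, so that the groups overlapped, and the other 3 mice of 3 h were all lower (difference 1.23, SE 0.26, adjusted p = 0.0751). Asap1, a GTPase-activating protein for Arf at adhesion sites, also overlapped through mouse 7 alone, at 9.64 against 8.10 to 8.62 for the other mice of 3 h and 9.45 to 10.41 at 4 h. Sgce, for epsilon-sarcoglycan of the dystrophin complex, was at 6.47, 6.5, 6.48 and 7.17 at 3 h, where no array was above the empty spots, and at 7.36, 7.84, 7.34 and 7.44 at 4 h, where 1 of 5 was. A bound on its fold could therefore not be set clearly above 1.

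Others of the 12 act in signalling or in the cell cycle. Pla2g4a, for the cytosolic phospholipase A2 that frees arachidonic acid from membrane lipids for eicosanoid synthesis, had the smallest p of all clones. It was at 7.47, 7.01, 7.40 and 7.87 in the mice of 3 h and at 9.0, 8.75, 8.48 and 8.62 in those of 4 h. The lowest mouse of 4 h was above the highest of 3 h (difference 1.27, SE 0.25, 2.41-fold, adjusted p = 0.0751). Mapk6, the atypical kinase ERK3, was at 8.32, 8.45, 8.55 and 9.89 at 3 h and at 10.45, 10.67, 10.35 and 10.53 at 4 h. Its 4 h mice lay close together above all mice of 3 h, and its difference of 1.70 (SE 0.36, 3.25-fold) was the largest of the 12 higher genes. Rb1, the retinoblastoma protein that restrains entry into S phase, was at 7.57, 7.43, 7.88 and 8.36 and then at 9.03, 8.68, 8.92 and 8.41, a difference of 0.95 (SE 0.22) with no overlap. A second Rb1 clone differed by 0.45.

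The remaining higher genes differ in function. Itm2b, for the membrane protein BRI2, ran from 11.27 to 12.13 at 3 h and from 12.32 to 12.99 at 4 h. Ttll4, a tubulin polyglutamylase, ran from 7.35 to 8.14 and from 8.50 to 10.03, with mouse 6 of 4 h the highest. Zfp282, a zinc finger protein, ran from 6.62 to 6.94, not above the empty spots on any array, and from 7.42 to 7.58, and it is the only one of the 24 in which mouse 7 was the mouse of 3 h farthest from 4 h. R3hdm1, an R3H domain protein, ran from 6.73 to 7.71 and from 7.88 to 8.54, and was at least 1.60-fold higher at 4 h, since no array of 3 h was above the empty spots. Fbf1, a protein of centriole appendages, was likewise below that limit at 3 h and ran from 6.81 to 7.25 and from 7.47 to 8.17.

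The 12 lower genes differ in function. H2-K1, a classical MHC class I heavy chain, had the largest difference of the 24. It was at 8.91, 9.52, 8.73 and 7.03 in mice 2, 3, 4 and 7 of 3 h and at 5.71, 6.20, 5.99 and 6.05 in the mice of 4 h. No array of 4 h was above the empty spots, so the gene was at least 1.98-fold lower (means 8.55 and 5.99, adjusted p = 0.0795). Class I genes are near-identical in sequence, and a spotted cDNA cannot separate them. Ccl6, a chemokine of rodent myeloid cells, was at 10.78, 11.07, 11.44 and 9.92 at 3 h and at 8.80, 9.36, 9.24 and 9.30 at 4 h. The hours did not overlap, with mouse 7 the lowest at 3 h (difference -1.63, SE 0.35, 3.09-fold lower, adjusted p = 0.0778). A second Ccl6 clone differed by -1.0.

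Rab11b, Sec61a1 and Bnip1 act in the endosomes and the endoplasmic reticulum. Rab11b, a GTPase of recycling endosomes, was at 10.13, 10.27, 10.32 and 9.64 at 3 h and at 9.50, 9.02, 8.82 and 9.18 at 4 h. The closest mice were mouse 7 of 3 h and mouse 2 of 4 h (difference -0.96, SE 0.21, adjusted p = 0.0778), and a second clone differed by -1.32. Sec61a1, the channel through which new proteins enter the endoplasmic reticulum, was at 7.28, 7.66, 7.36 and 7.07 and then at 6.14, 6.35, 6.77 and 6.31. Bnip1, a SNARE of the endoplasmic reticulum, ran from 7.11 to 7.78 and from 6.39 to 6.81. For both, no array of 4 h was above the empty spots, and a bound on the fold could not be set above 1.

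Dusp7, a phosphatase that inactivates ERK, was at 10.08, 9.67, 10.11 and 8.19 at 3 h and at 7.86, 7.07, 7.13 and 7.20 at 4 h. Its hours did not overlap (difference -2.20, SE 0.52, 4.59-fold lower, adjusted p = 0.0902). Atp5d, a subunit of mitochondrial ATP synthase, was at 8.18, 8.16, 8.15 and 7.90 at 3 h and at 7.46, 7.30, 7.38 and 7.09 at 4 h, at least 1.45-fold lower. Atic, an enzyme of purine synthesis, ran from 7.13 to 7.93 and from 6.23 to 6.80, at least 1.09-fold lower, with mouse 7 the lowest of 3 h. Cnot9, of the CCR4-NOT complex that shortens mRNA tails, overlapped through mouse 7, at 7.40 against 6.85 to 7.47 at 4 h, while the other mice of 3 h were at 8.62 to 8.98. Nrip1, a corepressor of nuclear receptors, ran from 6.93 to 8.03 and from 6.29 to 6.74, while a second clone of it differed by 0.01. Timp2, an inhibitor of matrix metalloproteinases, ran from 6.73 to 7.59 and from 6.24 to 6.51. Ttc9c, a tetratricopeptide repeat protein, ran from 8.70 to 9.69 and from 7.82 to 8.70, where the hours only just separated. Nrip1 and Timp2 were not above the empty spots on any array of 4 h. In all, 7 of the 24 genes had another clone, and Nrip1 was the only one of the 7 whose other clone differed by less than 0.30 or in the opposite direction.

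**Figure D3:**
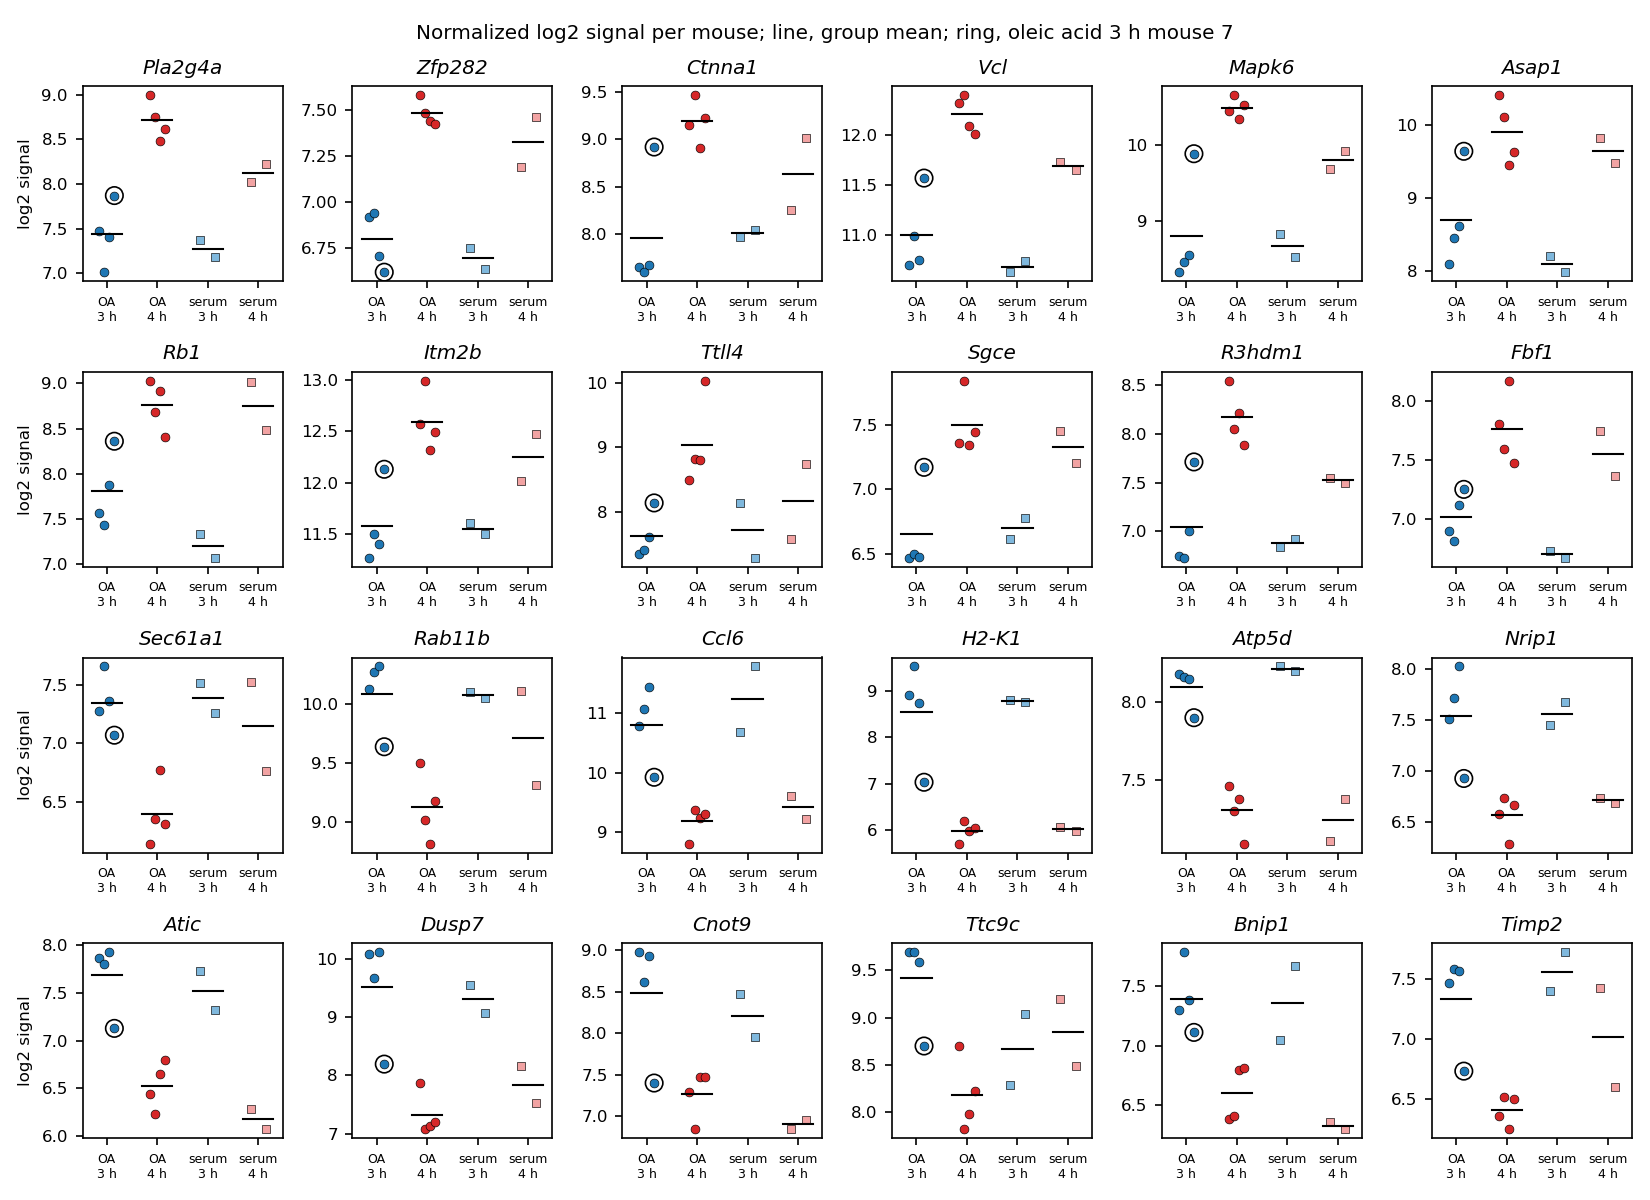
Normalized log2 signal of the 24 genes in each OA mouse (circles) and serum mouse (squares) of 3 h (blue) and 4 h (red), with group means as lines and OA mouse 7 of 3 h ringed. In 23 genes the ringed mouse is the mouse of 3 h nearest to the 4 h mice, and in 23 genes the serum means differ in the same direction as the OA means.

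For most of these 24 genes, the outlying OA mean among the times studied was that of 4 h rather than 3 h. Of the 12 higher genes, 10 had their highest OA mean of the 6 times at 4 h, all but Rb1 and Fbf1. Of the 12 lower genes, 11 had their lowest OA mean at 4 h, all but Ccl6, which was lower at 24 h (9.05 ± 0.28, SD, n = 4). Pla2g4a had means between 7.36 and 7.63 at 1, 1.5, 3, 18 and 24 h and 8.71 ± 0.22 (SD, n = 4) at 4 h. H2-K1 had means between 7.61 and 8.55 at the other OA times and 5.99 ± 0.20 (SD, n = 4) at 4 h. Single mice of other times were as low for H2-K1, down to 5.78 at 18 h and 6.29 at 1.5 h with OA and 6.19 at 18 h with serum. The 3 h mean lay within the range of the OA means of 1, 1.5, 18 and 24 h for 8 of the 12 higher and 7 of the 12 lower genes, and the 4 h mean did for 2 and 1. In serum, 8 of the 12 higher genes had their highest mean at 4 h, and 8 of the 12 lower genes their lowest. Since these genes were chosen for a difference between 3 h and 4 h, their standing at these hours is a description. The same share over all clones was not counted.

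**Figure D4:**
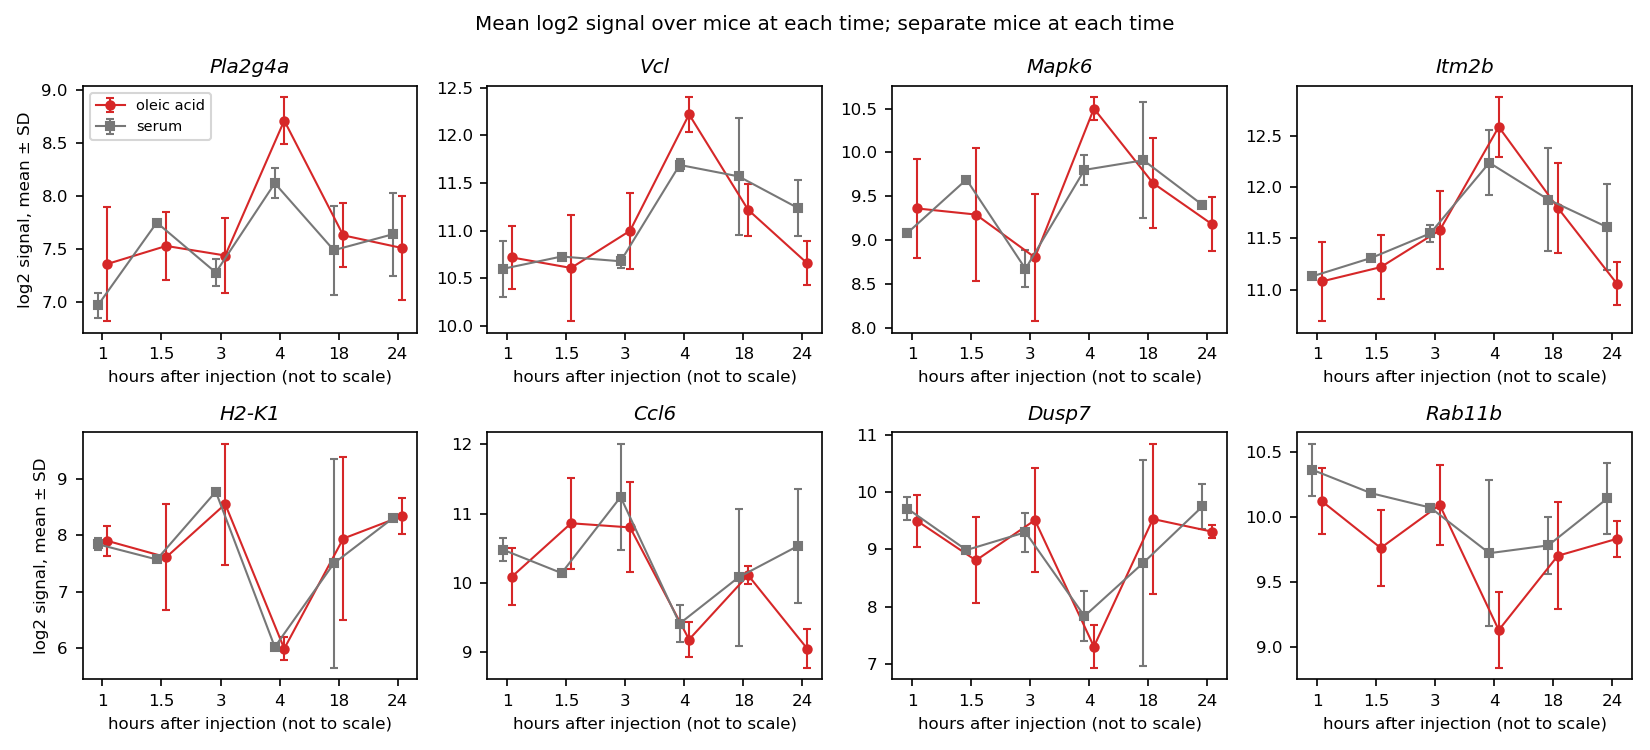
Mean log2 signal with SD (vertical bars) of 8 genes at the 6 times in OA mice (red circles) and serum mice (grey squares), with separate mice at each time and 1 serum mouse without an SD at 1.5 h. Pla2g4a peaks at 8.71 and H2-K1 is lowest at 5.99 at 4 h in the OA mice, and the serum mice of 4 h are at 8.12 and 6.02.

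A difference between the hours was also seen in the serum mice, in which more clones passed. Between 4 h and 3 h of serum, 399 clones were higher (5.16% of 7739) and 489 lower (6.32%), with 2 mice a group and the spread shared over all 12 groups. Both serum mice of 4 h stood apart on the first component and neither of 3 h did, so hour and standing apart cannot be told apart in serum. The count also rests on single mice, with 0 to 1623 clones passing when 1 of the 4 was left out, 0 without serum mouse 5 of 3 h and 1623 without serum mouse 4 of 4 h. The split between directions depended on the scaling, with 619 higher of 1127 after median centring and 263 higher of 797 in the authors' table, against 399 of 888 here. The median serum difference over all clones was 0.07 and, after median centring, 0.21. With only the mice of 3 h and 4 h in the fit, 0 passed in serum, and 1805 had an unadjusted p under 0.05.

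Of the 888 clones that passed in serum, 804 had the same sign in the OA mice. The share of equal signs over all clones was not counted. This count and that of the 24 genes below therefore have no background beside them. Across the 7739 clones, the OA and serum differences correlated with Pearson's r of 0.644 and Spearman's rho of 0.5851. Without the OA mice that stood apart, r was 0.443. The loadings of the first component, computed over all 37 mice, correlated with the serum difference at 0.916 and with the OA difference at 0.725. These mice helped to form the component, and both serum mice of 4 h stood apart on it. The 2 correlations with the loadings therefore follow in part from its construction and are a description. The OA and serum differences share the normalization and the time at which mice were sampled, and no mouse. Among the 24 genes, all 12 higher were also higher in serum mice of 4 h, 11 of the 12 lower were also lower, and 10 passed in serum. The median difference of the 12 higher genes was 1.16 with OA and 0.76 with serum, and that of the 12 lower genes was -1.07 with OA and -1.0 with serum. H2-K1 was at 8.79 and 8.75 in the serum mice of 3 h and at 6.06 and 5.99 in those of 4 h (adjusted p = 0.032 in serum by limma). Its OA and serum changes differed by 0.19 (SE 0.99). Ccl6 was at 10.69 and 11.79 and then at 9.61 and 9.22 (-1.82, adjusted p = 0.0258). Asap1 was at 8.21 and 7.99 and then at 9.82 and 9.48 (1.54, adjusted p = 0.0187). Pla2g4a was at 7.37 and 7.18 and then at 8.02 and 8.22, a smaller difference that did not pass (0.84, adjusted p = 0.108).

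**Figure D5:**
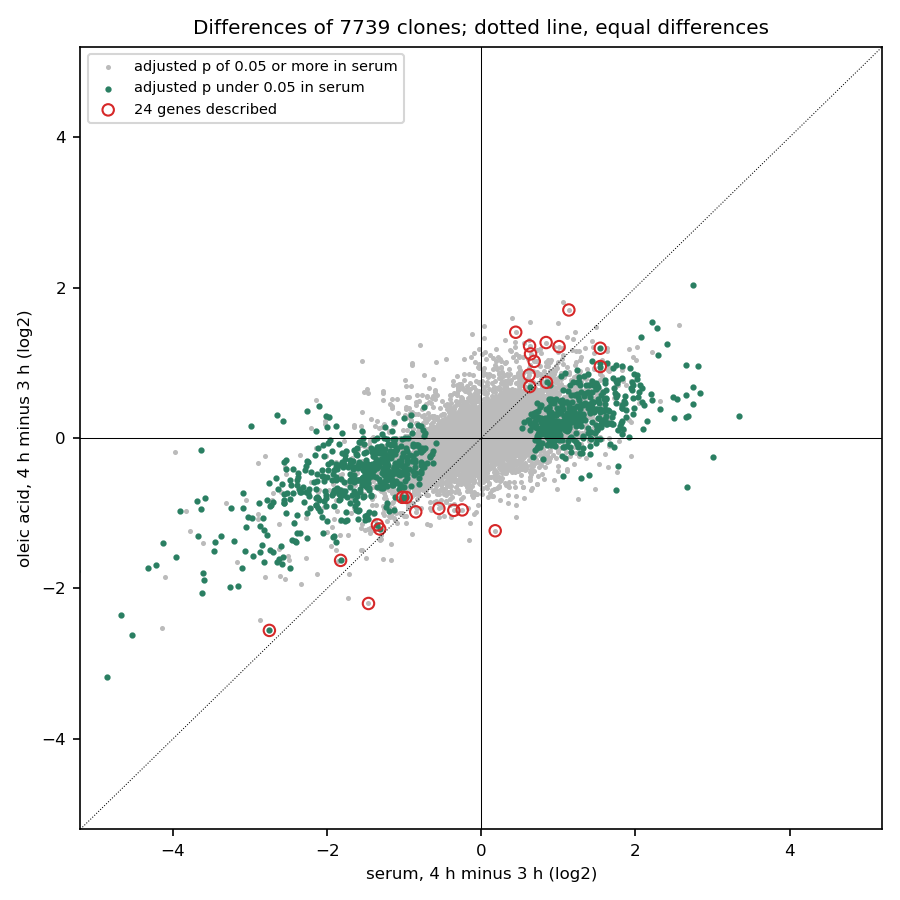
Difference between 4 h and 3 h of each of the 7739 clones in OA mice (vertical) against serum mice (horizontal), on the log2 scale. Green points passed in serum, and red rings mark the 24 genes. Most green points lie in the quadrants of equal sign (804 of 888). The dotted line marks equal differences, and the green points were selected for their serum difference. The share of equal signs over all clones was not counted.

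The difference between the OA and the serum change was tested in the same fit. No clone passed (0 of 7739, 0%), the smallest adjusted p was 0.26, and 850 clones had an unadjusted p under 0.05, of which 392 were above 0 and 458 below. The median standard error of this difference was 0.4056. Among the 24 genes, Ttc9c alone had an unadjusted p under 0.05. It was at 8.29 and 9.04 in serum mice of 3 h and at 9.20 and 8.49 in those of 4 h, against the lower levels in OA mice of 4 h given above (difference of changes -1.42, SE 0.52, unadjusted p = 0.0111, adjusted p = 0.395 by limma). The clones with the smallest p included Ctsz, a lysosomal cathepsin, at 7.77 to 8.89 and 8.12 to 9.05 in OA mice of 3 h and 4 h, against 8.65 and 9.37 and then 6.24 and 7.75 in serum mice. They also included C3, the central complement component, at 8.57 to 9.02 and 8.59 to 9.31 with OA and at 9.57 and 9.47 and then 8.21 and 9.01 with serum. Their changes differed by 2.31 (SE 0.53) for Ctsz and 1.22 (SE 0.32) for C3. For Ctsz both serum mice of 4 h, which stood apart, were below every other mouse, and for C3 serum mouse 1 was, while serum mouse 4 lay within the OA levels. In the other direction stood Atg4c, a protease of autophagy, at 6.84 to 7.49 and 6.91 to 7.31 with OA and at 6.77 and 6.21 and then 8.37 and 7.46 with serum (difference of changes -1.35, SE 0.32). Atg4c was not above the empty spots on any OA array and was on 1 of the 5 serum arrays. Psmc5, an ATPase subunit of the proteasome, was at 9.42 to 10.96 and 8.76 to 9.80 with OA and at 9.27 and 9.18 and then 11.18 and 9.86 with serum (-1.83, SE 0.48). The changes of Dpp7, a peptidase of lysosomes, differed by -2.14 (SE 0.56).

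Gene lists chosen for blood, inflammation and lipid metabolism were described by their members at an unadjusted p under 0.05, beside 7.4% higher and 7.47% lower over all clones and a median difference of 0.015. No member of any list passed after adjustment in the main fit with all mice. Of 28 inflammatory cytokines and NF-kB targets, 1 was higher and 3 were lower, with a median of -0.08. The lower ones were Ccl6, Ccl9 (-0.59, SE 0.21) and Il1b, the cytokine interleukin 1 beta (-1.85, SE 0.80). Ccl9 was not above the empty spots on any OA array of 4 h, and was at least 1.09-fold lower. Of 21 immediate-early and stress genes, which respond within an hour to many stimuli, Dusp6 was higher and Csrnp1 lower. Csrnp1, a transcription factor induced by axin, was at 11.39, 12.28, 12.22 and 10.70 at 3 h and at 9.46, 9.54, 9.51 and 9.58 at 4 h. The 4 h mice lay close together and below every mouse of 3 h (difference -2.13, SE 0.59, adjusted p = 0.115). Serum mice were at 11.85 and 12.32 and then at 10.64 and 10.08.

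Markers of myeloid cells had medians below 0. Of 18 neutrophil markers, 1 was higher and 2 lower, with a median of -0.29, and the mean level of the list, each gene taken from its mean over all 37 mice, ran from -0.14 to 0.32 over the mice of 3 h and from -0.43 to -0.05 over those of 4 h. S100a8 overlapped between the hours, at 11.31 to 12.44 and 10.22 to 12.28. Of 27 monocyte and macrophage markers, 0 were higher and 3 lower, with a median of -0.18. Ly6c1, a surface protein of monocytes and some lymphocytes, was at 10.60, 10.58, 10.50 and 10.78 at 3 h and at 9.58, 9.91, 9.93 and 10.03 at 4 h. The hours did not overlap, and mouse 7 was the highest rather than the lowest of 3 h (difference -0.75, SE 0.26, adjusted p = 0.186).

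Lymphocyte markers had members in both directions. Of 31 T cell markers, 2 were higher and 2 lower, with a median of 0.06. Il2ra, a chain of the interleukin 2 receptor, was at 8.20 to 8.35 in 3 mice of 3 h, 9.67 in mouse 7 and 8.84 to 10.39 at 4 h. Tcf7, a transcription factor of naive T cells, was at 6.78 to 7.37 in 3 mice of 3 h, 5.75 in mouse 7 and 5.37 to 5.88 at 4 h. It was above the empty spots on only 1 of 6 OA arrays of 3 h and 0 of 5 of 4 h. Of 21 B cell markers, 0 were higher and 3 lower, with a median of -0.18. Syk, a kinase downstream of the B cell receptor, was at 8.37, 9.15, 8.78 and 7.34 at 3 h and at 7.39, 7.16, 7.28 and 7.43 at 4 h, at least 1.80-fold lower. Of 9 MHC class II genes, 0 were higher and 2 lower. H2-Eb1, a class II beta chain, was at 12.28, 12.42 and 11.85 in mice 2, 3 and 4 of 3 h, at 8.88 in mouse 7, at 8.43 and 8.88 in mice 2 and 3 of 4 h, and at 10.65 and 11.16 in mice 5 and 6. Its low values were those of the mice that stood apart, and in serum it was at 12.09 and 12.44 at 3 h and at 7.86 and 8.75 at 4 h. Of 16 NK and cytotoxic markers, 3 were higher and 0 lower, with a median of 0.05, Ncr1 among them (0.81, SE 0.29). Differences above 0 were found in 8 of the 16. Nkg7, of this list, ran from 6.93 to 8.53 at 3 h and from 7.03 to 7.91 at 4 h (-0.52, SE 0.37). In serum, 1 of the 16 passed as higher, Ncr1, and 1 as lower, Nkg7. Nkg7 was at 8.83 and 8.91 and then at 6.64 and 7.11 in serum mice (adjusted p = 0.0226 by limma).

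Platelet markers had a median above 0, and that of red cell markers was close to the median over all clones. Of 8 platelet markers, 3 were higher and 0 lower at 4 h, and their median of 0.60 was the largest of the 25 lists. Ppbp, a chemokine stored in platelet granules, was at 12.48, 12.55, 13.14 and 14.31 at 3 h and at 14.41, 14.30, 14.24 and 14.33 at 4 h, close to the ceiling of 14.41. F2rl2, a thrombin receptor of mouse platelets, was at 7.6, 7.59, 7.88 and 8.18 and then at 8.53, 8.94, 8.89 and 9.08, with no overlap (difference 1.04, SE 0.39, adjusted p = 0.211). In serum mice F2rl2 was at 8.24 and 7.95 and then at 7.08 and 8.64. Pf4 was at 13.35 to 13.63 and 13.86 to 14.24, a difference of 0.54 (SE 0.36). Of 29 erythroid markers, 5 were higher and 0 lower, with a median of 0.07 beside 0.015 over all clones. Differences above 0 were found in 16 of the 29, beside 4025 of 7739 clones. Alas2, of this list, was at 13.99, 12.77, 13.39 and 13.73 at 3 h and at 11.94, 12.76, 13.75 and 13.29 at 4 h. Tal1, a transcription factor of red cell and platelet precursors, was at 7.54 to 8.06 in 3 mice of 3 h, 9.56 in mouse 7 and 8.78 to 9.94 at 4 h.

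Endothelial and epithelial markers of the lung gave 3 higher and 1 lower of 14, with a median of 0.05. Pecam1, an adhesion molecule of endothelium that leukocytes and platelets also carry, was at 10.67, 10.41, 10.65 and 10.76 at 3 h and at 11.21, 11.29, 11.86 and 12.09 at 4 h. The hours did not overlap, and mouse 7 was close to the other mice of 3 h (difference 0.99, SE 0.31, adjusted p = 0.137). A second Pecam1 clone differed by 0.08. Eng, an endothelial receptor of the TGF-beta family, differed by -0.73 (SE 0.30) and its second clone by 0.07. The first Eng clone was above the empty spots on only 1 of 6 OA arrays of 3 h and 0 of 5 of 4 h.

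Genes of lipid use and metabolism had few members past the unadjusted threshold. Of 32 genes of fatty acid oxidation and PPAR targets, 1 was higher and 3 lower, with a median of -0.02 (0.03 with median centring). Pnpla2, the lipase that opens stored triglyceride, was at 8.18, 8.36, 8.54 and 6.37 at 3 h and at 6.46, 6.05, 6.72 and 6.93 at 4 h. Mouse 7 lay among the 4 h mice (at least 1.23-fold lower at 4 h, adjusted p = 0.115), and serum mice were at 8.19 and 8.29 and then at 5.85 and 6.12. Plin2, a coat protein of lipid droplets, was at 8.25 to 8.69 in 3 mice of 3 h, 7.46 in mouse 7 and 7.31 to 7.51 at 4 h. No OA array of 4 h was above the empty spots for Plin2, which was at least 1.62-fold lower. Of 18 hypoxia and glycolysis genes, 2 were higher and 2 lower, and their median turned from -0.10 to 0.09 with median centring. Bhlhe40, a transcription factor induced by hypoxia and cytokines, was at 8.65, 8.54, 9.25 and 10.72 at 3 h and at 12.79, 12.06, 10.10 and 10.34 at 4 h, highest in the mice that stood apart. A second Bhlhe40 clone differed by -0.10, against 2.03 for this one. Of 33 oxidative stress genes, 2 were higher and 2 lower. Txnip, an inhibitor of thioredoxin, was at 12.10, 11.39, 12.42 and 9.30 and then at 8.20, 9.45, 10.01 and 10.07, and in serum mice at 10.31 and 11.20 and then at 7.11 and 9.30. Of 13 glucocorticoid-responsive genes, 0 were higher and 1, Klf9, was lower (-0.38, SE 0.18), with a median of -0.19 that was 0.01 with median centring.

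Of 31 interferon-stimulated genes, 1 was higher and 5 were lower, with a median of -0.17. Of 33 heat shock proteins and chaperones, 1 was higher and 5 lower, with a median of -0.11 that turned to 0.13 with median centring. Of 29 apoptosis genes, 2 were higher and 2 lower. Fadd, an adaptor of death receptors, was at 9.54, 9.01, 9.11 and 8.51 at 3 h and at 8.83, 7.94, 7.88 and 7.94 at 4 h. Its difference was -0.90, and the other Fadd clones differed by 0.17 and -0.14. Of 44 cell cycle genes, 4 were higher, Rb1 and the centromeric histone Cenpa (0.47, SE 0.21) among them, and 1 lower. A second Cenpa clone differed by -0.20.

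Genes of protein synthesis and turnover differed among themselves in which mice were low. Of 50 ribosomal protein genes, 1 was higher and 3 lower with all mice, with a median of -0.21 that turned to 0.13 with median centring. Without the mice that stood apart their median was -0.50, and 5 were lower after adjustment and 0 higher, beside 0.969% higher and 3.14% lower over all clones. Rpl14, of the large ribosomal subunit, was at 12.86, 13.13 and 12.83 in mice 2, 3 and 4 of 3 h and 8.89 in mouse 7, at 8.48 and 9.24 in mice 2 and 3 of 4 h, and at 10.06 and 10.54 in mice 5 and 6. Mice 5 and 6 thus lay between the other mice of both hours, and without those that stood apart the difference was -2.64 (adjusted p = 6e-05 by limma). The list as a whole was low in other mice. Its mean level was -0.40 and -0.20 in mice 5 and 6 of 4 h, which did not stand apart. It was 0.19 and 0.08 in mice 2 and 3 of 4 h and 0.05 in mouse 7 of 3 h, which did. In mice 2, 3 and 4 of 3 h it was -0.00, 0.41 and 0.19, so that mouse 2 of 3 h was below mouse 7. Of 31 proteasome subunits, 0 were higher and 4 lower, with a median of -0.11, and without the mice that stood apart 6 were lower after adjustment. Psma7, a core subunit, was at 9.36 to 9.56 in 3 mice of 3 h, 8.85 in mouse 7 and 8.42 to 8.86 at 4 h. Of 63 genes of oxidative phosphorylation, 3 were higher and 4 lower. Of 48 mitochondrial ribosomal genes, 2 were higher and 4 lower, and of 72 splicing and RNA-binding factors, 4 were higher and 3 lower, with a median of -0.06 (0.07 with median centring). Of 93 solute carriers, 5 were higher and 5 lower. Slc23a1, a vitamin C transporter, was at 9.34 to 10.16 and 8.49 to 9.19 with no overlap, and at 8.80 and 9.01 and then 9.42 and 9.08 in serum mice.

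In the serum mice, the same lists were counted after adjustment, beside 5.16% higher and 6.32% lower over all clones, and each count rests on the 2 mice of 4 h that stood apart. Of 50 ribosomal protein genes, 1 was higher and 15 were lower, although their median was only -0.09. Rps19 was at 13.68 and 13.58 in the serum mice of 3 h and at 8.71 and 11.16 in those of 4 h, and in the OA mice at 13.02, 13.39, 13.09 and 10.47 at 3 h and at 10.18, 11.27, 12.47 and 12.69 at 4 h. The lowest OA values of this gene were those of the mice that stood apart, which was not so for the mean of the list, given above. Of 27 monocyte and macrophage markers, 1 was higher and 7 lower in serum, of 31 proteasome subunits 2 and 7, and of 44 cell cycle genes 6 and 1. Of 21 B cell markers, 2 were lower and 0 higher. Cd37, a tetraspanin of B cells, was at 9.61 and 9.28 at 3 h and at 7.57 and 7.77 at 4 h in serum (-1.78, adjusted p = 0.00512 by limma), and at 8.47 to 9.48 and 7.99 to 8.55 with OA. Cd74, the invariant chain of MHC class II, was at 12.34 and 12.39 and then at 9.19 and 10.42 in serum (-2.56, adjusted p = 0.0125). With OA it was at 12.02, 12.42 and 12.33 in mice 2, 3 and 4 of 3 h and lower in mouse 7, at 10.55 and 10.44 in mice 2 and 3 of 4 h, and at 11.62 and 11.88 in mice 5 and 6. Of 8 platelet markers, 0 passed in either direction in serum, with a median of -0.19 that was 0.03 with median centring, against 0.60 with OA. The mean level of the list, in contrast, was higher at 4 h in both, -0.12 and 0.10 at 3 h and 4 h in serum and -0.14 and 0.35 with OA. Ppbp was at 12.86 and 12.49 and then at 14.34 and 14.28 in serum.

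Among the 318 clones that passed without the mice that stood apart, genes with smaller p outside the 24 were noted after their values were seen. Sars, a seryl-tRNA synthetase, was at 9.05, 8.81 and 8.72 in mice 2, 3 and 4 of 3 h and at 6.82 and 6.65 in mice 5 and 6 of 4 h. Mouse 7, at 6.46, was as low as the 4 h mice (difference without the mice that stood apart -2.13, adjusted p = 6.2e-05). Cotl1, a protein that binds actin filaments, was at 9.24, 9.54 and 9.37 against 7.50 and 7.23, with mouse 7 at 6.93. Pdcd4, a translation inhibitor, was at 9.55, 9.76 and 9.54 against 7.94 and 8.02, and here mouse 7, at 8.62, and mice 2 and 3 of 4 h, at 9.0 and 8.64, lay between them. Mon2, of Golgi and endosome trafficking, was at 8.66, 8.38 and 8.95 against 10.47 and 10.19. Mice 2 and 3 of 4 h were at 9.0 and 10.10, and mouse 7 at 9.04. Ripk3, a kinase of necroptosis, was at 7.75, 7.56 and 7.74 against 9.27 and 8.71. Mice 2 and 3 of 4 h were at 8.05 and 8.25, and mouse 7 at 8.22. With all OA mice the hours thus overlapped for both genes. In serum mice Mon2 was at 9.61 and 9.0 and then at 8.43 and 10.13, and Ripk3 at 8.09 and 7.84 and then at 7.70 and 8.84. G6pdx, the first enzyme of the pentose phosphate pathway, was at 7.13, 7.29 and 7.45 against 8.44 and 8.51, while mice 2 and 3 of 4 h were at 7.45 and 8.30 and mouse 7 at 8.14. In serum mice G6pdx was at 8.31 and 7.97 at 3 h and at 7.30 and 8.46 at 4 h, and the difference of changes did not pass (adjusted p = 0.437 by limma).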

How the data were processed

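Total RNA of PBMC was amplified as antisense RNA, labelled with 33P and hybridised to nylon cDNA filters, per the labels' protocols. The authors deposited, for each array, 1 linear intensity per spot, from 15 to a ceiling of 21815, and a quality score of 0 or 1, which was not used. The deposited tables hold quantile-normalized log2 values and log2 ratios of OA to serum, per the file headers. The image quantification is not described in the sources used. The depth of an array is limited by its signal over 1478 empty spots.

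Intensities of 7771 clone spots were log2 transformed and quantile normalized without background correction (limma 3.58.1, R 4.3.3). Spots of a clone (7739) and arrays of a mouse were averaged. A spot was called above the empty spots beyond their median plus 2.6 robust SDs. Where all arrays of a group were below this, a bound is given instead of a fold: the mean of the brighter group over the higher of the lowest signal above the empty spots and the clone's own. Gene symbols come from the files, updated through RefSeq names (GRCm38.p6) by symbol for 6430 clones and by synonym for 1037. The other 272 have none.

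One model over 37 mice in 12 groups gave all contrasts (lmFit, contrasts.fit, eBayes), with Benjamini-Hochberg adjustment. It was run on simulated data in which clones varied independently and no mouse stood apart. That run cannot show how mice that stand apart affect the counts. Whether mice of 1 group differ as separate experiments is not stated in the labels, so p-values measure the spread between these mice. Genes named are the 12 per direction with the smallest p, 2 per list, 5 per direction for serum and the difference of changes, and fixed markers, 1 clone per gene (highest mean signal). Members and lists were chosen with earlier results of these data known. Mouse numbers were not used to pair the hours. Deviations of same-numbered mice from their group means correlated at -0.51, 0.0012 and -0.10. With so few mice a group, these values cannot show whether the numbers pair. Alternatives were median centring, the authors' quantile table, an offset of 50, a filter on dim clones, fewer groups, mouse number as a block, arrays unaveraged with duplicateCorrelation, 1 array per mouse, and leaving out mice.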

Additional observations from a re-analysis of the deposited data

Results flagged for a closer look

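In 9 of the 98 groups of 4 mice examined, 1 mouse lay far from the other 3, by a gap past Dixon's 95% critical value for the group's range. Chance gives about 1 in 20 such groups. In 8 of the 9 it was OA mouse 7 of 3 h. Its level was 8.92 for Ctnna1 against 7.6 to 7.68 in the other mice of 3 h, 9.89 for Mapk6 against 8.32 to 8.55, and 7.17 for Sgce against 6.47 to 6.5. It was 7.90 for Atp5d against 8.15 to 8.18, 7.13 for Atic against 7.81 to 7.93, 8.70 for Ttc9c against 9.59 to 9.69, and 6.73 for Timp2 against 7.47 to 7.59. Its mean level of the monocyte and macrophage markers was -0.06 against 0.02 to 0.04. The other was OA mouse 2 of 4 h, at 7.86 for Dusp7 against 7.07 to 7.20. These genes were chosen for a difference between the hours, and the examined groups share the same 8 mice.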

How the results depend on the processing

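For OA 4 h against 3 h, 0 clones passed in the main fit. With median centring 22 passed (18 higher), and 4 of 1613 did without dim clones. With mouse number as a replicate block 3 passed, and 118 (55 higher) with arrays unaveraged. The count was 0 to 711 without 1 OA mouse and 318 without the mice that stood apart. It was 124 without those that stood apart and OA mouse 3 of 3 h, and 140 without OA mice 3 and 7 of 3 h. The authors' table, the offset, the fits of fewer groups and 1 array per mouse gave 0, with 833 to 1150 clones at an unadjusted p under 0.05. In serum, 888 became 301 without dim clones, 0 with 4 groups, 576 with the replicate block, and 0 to 1623 without 1 mouse. Serum calls were 619 higher of 1127 with median centring and 263 higher of 797 with the authors' table, against 399 of 888. For the difference of changes, 0 became 0 to 390 without 1 mouse, with 3 without serum mouse 1 of 3 h, 4 without serum mouse 1 of 4 h and 390 without serum mouse 4 of 4 h, and 0 elsewhere. The block changed the call of 1 of the 24 genes. Same-numbered mice are not known to share more than a number. Over the genes named and all settings, 203 OA values newly passed and 0 no longer passed, and 306 serum values no longer passed and 10 newly passed, and 10 differences of changes newly passed. No named value changed sign in the comparison it was named for, but for 13 of all 168 genes named, the OA difference turned sign without the mice that stood apart, such as Psmc5 (-0.53 to 0.15), Mrps15 (0.18 to -0.10) and Zdhhc20 (0.11 to -0.16). The causes were not tested. Dim clones limit precision, and between 41.8 and 57.8% of clone spots on the OA arrays were above the empty spots.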
